A study of Homo sapiens with 12 samples.

Results

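The NRF2 (NFE2L2) regulon and the aldo-keto reductases were followed in A172, a human line established from a glioblastoma, by RNA sequencing of cells given siRNAs against uc.110. uc.110 is an ultraconserved region, a stretch of genome shared without a difference between distant mammals. The list held 38 genes: the transcription factor, its inhibitor KEAP1, 30 further genes of antioxidant, conjugation and export pathways, and 6 aldo-keto reductases. Members were found by symbol among the protein-coding rows of the count table, and each of the 38 had 1 such row. SQSTM1 and ABCC1 had no usable value, because their rows span 179 and 14.5 Mb, and the 36 others all passed the filter on low counts, among 24936 gene intervals tested, 14989 of them protein-coding.

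A172 cells were given a scrambled control siRNA (4 libraries), siRNA-1 against uc.110 (4 libraries) or siRNA-2 against uc.110 (4 libraries). Transfection took 6 h on day 1, the dose being 3 µL of a 20 µM stock together with 9 µL of a Lipofectamine reagent, and RNA was taken on day 2. All 12 libraries come from 1 line with no change to its genome named in the labels, no untransfected cells are among them, and neither siRNA's sequence is stated in the labels. Separate cultures are not named for the libraries of a group, so the p-values reflect a spread among samples that may be technical.

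Each library held 42750164 to 52911797 counts over 45121 gene intervals. Over the targeted region lay 4, 0, 1 and 6 reads after scrambled siRNA, 2, 0, 1 and 2 after siRNA-1, and 3, 0, 4 and 0 after siRNA-2, too few to check the knockdown. Reads in 45S ribosomal RNA were 1.81% to 5.48% of a library in 10 libraries, 16.2% in replicate 3 of siRNA-1 and 9.33% in replicate 2 of siRNA-2. Of 8 glioblastoma and neural progenitor markers 7 were tested, with GFAP at 5.81 to 8.96 CPM (a gene's reads scaled to the library's total after TMM normalization) across the 12 libraries, while S100B was at 0 in 11 of them. Of the 7, 4 rose and 2 fell with each siRNA, with log2 fold changes against scrambled of siRNA-1 and siRNA-2 of 0.95 and 1.06 in OLIG2, 0.43 and 0.26 in GFAP, 0.20 and 1.02 in FN1 and -0.65 and -0.44 in VIM. NES (0.23 and -0.27) and CD44 (-0.23 and 0.30) went opposite ways with the 2 siRNAs, SOX2 did not pass the test (-0.11 and -0.15), and the part of these shifts in the results below was not tested. Of 7 hematopoietic and endothelial markers, PTPRC and AIF1 had no interval of their own. The other 5 summed to 5.56 to 9.01 CPM over the 12 libraries, with CD3E at most 0.0851 CPM and PECAM1 at most 5.45 CPM. All 6 interferon response genes of a marker list rose with both siRNAs, their sum going from 162 to 384 CPM in the scrambled libraries (highest in replicate 1) to 1271 to 1347 CPM with siRNA-1 and 1824 to 1941 CPM with siRNA-2; their part in the results below was not tested.

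NRF2 is a transcription factor that is held in the cytoplasm and marked for destruction by KEAP1, an adaptor of a ubiquitin ligase whose cysteines react with electrophiles. When KEAP1 is modified, NRF2 builds up, pairs with small MAF proteins and binds antioxidant response elements near genes for glutathione synthesis, thioredoxin, NADPH supply, iron storage and the reduction of quinones and carbonyls. Aldo-keto reductases use NADPH to turn aldehydes and ketones, steroids among them, into alcohols, and AKR1B10 and the AKR1C genes are widely used as readouts of NRF2 in human cells.

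Most of the listed genes were lower with either siRNA. With siRNA-1, 25 of the 36 genes fell (69.4%), 4 rose (11.1%) and 7 did not pass the test, by edgeR's quasi-likelihood test with Benjamini-Hochberg adjustment over all genes tested and a threshold of 0.05. Over all genes, 24.8% were lower and 28.5% higher in that comparison, and over protein-coding genes 28.0% and 35.0%. With siRNA-2, 27 of the 36 fell (75%), 4 rose (11.1%) and 5 did not pass, beside 26.1% lower and 29.9% higher over all genes and 30.5% and 35.1% over protein-coding genes. The 36 genes had a median log2 fold change of -0.32 (siRNA-1) and -0.42 (siRNA-2), beside medians of 0.01 over all genes in each comparison and 0.03 and 0.02 over protein-coding genes.

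These counts describe the list beside the shares over all genes and are not a test of it. Where 2 log2 fold changes are given for a gene below, the first is of siRNA-1 and the second of siRNA-2, each against scrambled. Both comparisons use the same 4 scrambled libraries, so they are given side by side and not as support for each other. The genes lower with both siRNAs numbered 24, those higher with both 3 (KEAP1, HMOX1 and CBR1), and none passed in opposite directions. Libraries of the siRNA group lay wholly below the scrambled ones in 26 of 36 genes with siRNA-1 and in 26 with siRNA-2, and wholly above them in 4 and 4. Over all genes the shares wholly below were 22.2% with siRNA-1 and 24.0% with siRNA-2, and those wholly above 25.2% and 27.7%. Over protein-coding genes they were 25.4% and 28.6% below and 31.2% and 33.1% above. A fall of 2-fold or more was seen in AKR1B10, AKR1C1, AKR1C2 and AKR1C3 with siRNA-1, and in these and SLC7A11 with siRNA-2. HMOX1 alone among the 36 rose by 1.5-fold or more, and did so with each siRNA. ABCC2, GSTM3 and PTGR1 passed the test with neither siRNA.

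**Figure D1:**
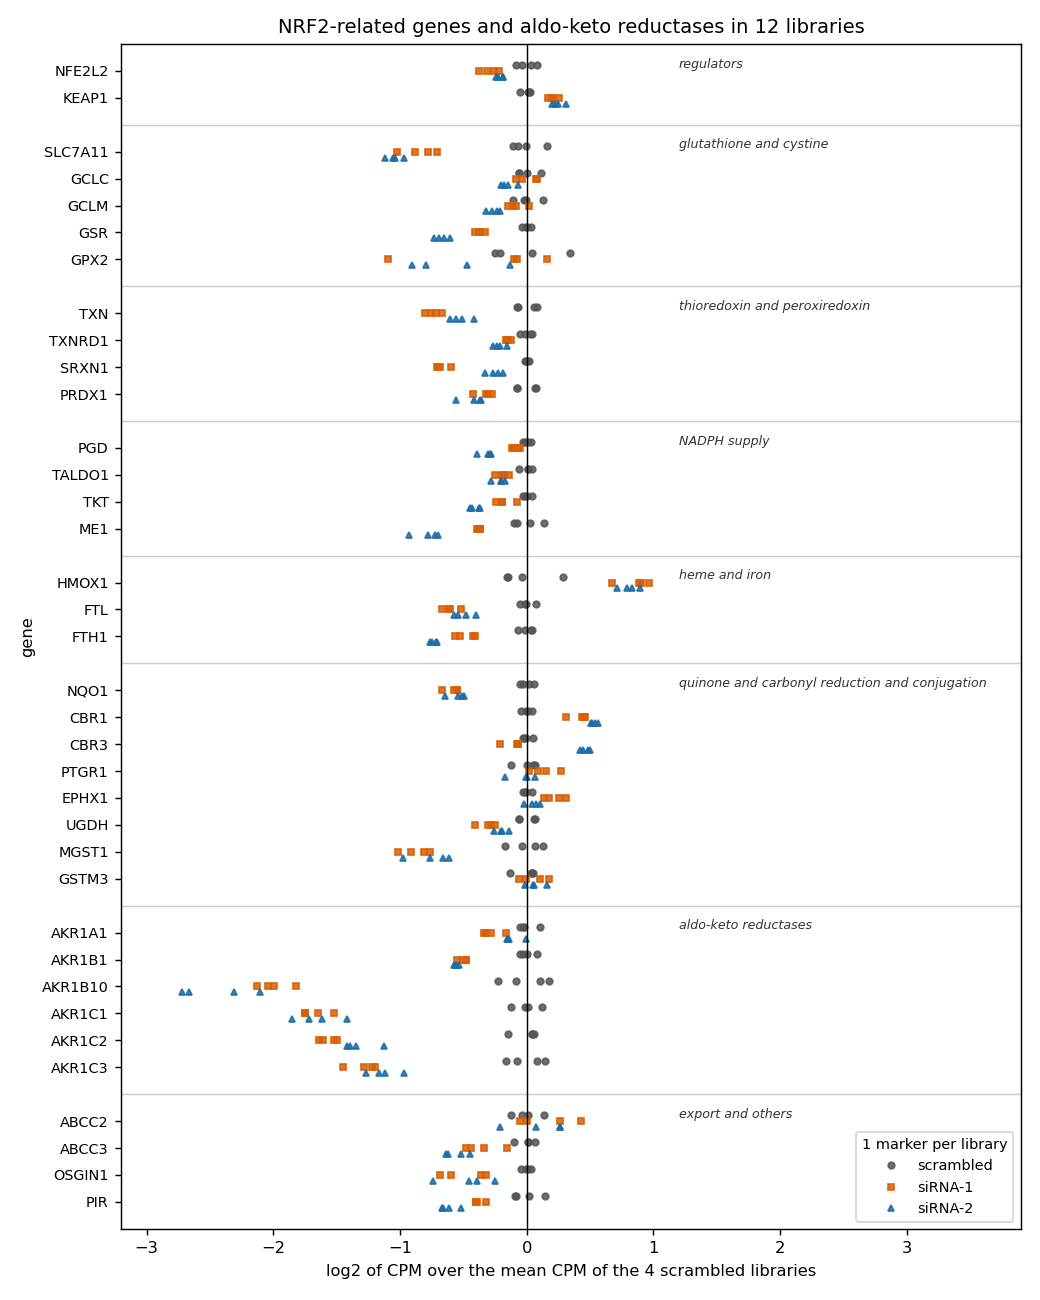
Each marker is 1 library, placed at the log2 of its CPM over the mean CPM of the 4 scrambled libraries, for the 36 genes grouped by role. AKR1B10 and the AKR1C genes lie farthest to the left with both siRNAs, and HMOX1, CBR1 and KEAP1 lie to the right.

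The counts are of whole gene spans, so reads of introns and of overlapping genes are included. The labels do not state whether strand was used. Strand is taken as not used, because some intervals nested on opposite strands hold similar counts, LOC100133286 having 100% as many reads as CBR1. For 19 of the 36 genes an overlapping gene's interval holds over 5% as many reads as the gene's own. The 17 others gave 12 lower and 2 higher with siRNA-1 and 12 lower and 2 higher with siRNA-2 (70.6% lower in each), with medians of -0.27 and -0.32. The share that fell was similar in these 17, whose overlapping intervals, among those checked, hold few reads. Very long intervals, those with a number for a name and those that reach over 100 kb beyond their gene were not checked. Some of the 17 also run well past their annotated gene, AKR1B1 by 28.6 kb, AKR1B10 by 21.8 kb and GSTM3 by 14.3 kb. Reads common to 2 intervals were not themselves counted. In cells measured in bulk, fewer cells that express a gene and less RNA per cell cannot be told apart.

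The pathway's regulators moved in opposite directions. NFE2L2 measured 80.4, 83.04, 87.3 and 90.1 CPM in the scrambled libraries, 65.5, 71.2, 73.3 and 68.5 CPM with siRNA-1 and 74.8, 72.1, 74.8 and 72.8 CPM with siRNA-2. Every library of either siRNA lay below the lowest scrambled one, and the 2 siRNA groups overlapped. NFE2L2 fell, with log2 fold changes of -0.29 ± 0.04 (adjusted p = 1.68e-06) with siRNA-1 and -0.21 ± 0.04 (adjusted p = 0.000108) with siRNA-2, where ± is the standard error of 4 libraries against 4. Its interval (hg38 chromosome 2, 177222649 to 177265131, minus strand) runs 7.65 kb past the annotated end and shares 3.78 kb with HNRNPA3, a splicing factor gene that holds 252% as many reads and also fell (-0.26 and -0.47); its part in the NFE2L2 value was not tested.

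KEAP1 measured 171.8, 171, 171 and 163 CPM in the scrambled libraries, 194, 189.8, 194 and 202 CPM with siRNA-1 and 209.6, 194, 200.2 and 198 CPM with siRNA-2. The siRNA libraries all lay above the scrambled ones. KEAP1 (hg38 chromosome 19, 10481041 to 10503378, minus strand) rose by 0.21 ± 0.04 (adjusted p = 2.22e-05) with siRNA-1 and 0.24 ± 0.04 (adjusted p = 1.59e-06) with siRNA-2, and siRNA-2 against siRNA-1 gave 0.04 ± 0.04 (adjusted p = 0.437).

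The aldo-keto reductases held the strongest falls in the list. With siRNA-1 all 6 of 6 fell, with a median of -1.43, and with siRNA-2 5 of 6 fell, with a median of -1.22. AKR1B10, which reduces retinal and aliphatic aldehydes, is at chromosome 7, 134505731 to 134541414, on the plus strand, an interval that begins 21.8 kb before the annotated gene. AKR1B10 measured 5.86, 5.14, 4.68 and 6.17 CPM in the scrambled libraries, 1.25, 1.37, 1.55 and 1.33 CPM with siRNA-1 and 0.861, 0.827, 1.10 and 1.27 CPM with siRNA-2. The scrambled libraries were all more than 3 CPM above every siRNA library, while siRNA-1 and siRNA-2 overlapped. AKR1B10 fell, with log2 fold changes of -1.99 ± 0.14 (adjusted p = 1.27e-11) with siRNA-1, a factor of 3.98, and -2.42 ± 0.15 (adjusted p = 4.18e-13) with siRNA-2, a factor of 5.36. It is also the thinnest of the reductases, with 37 to 290 reads per library. AKR1B15, its close paralog, had 0.15 to 1.14 CPM, and reads of the pair can be misassigned.

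**Figure D2:**
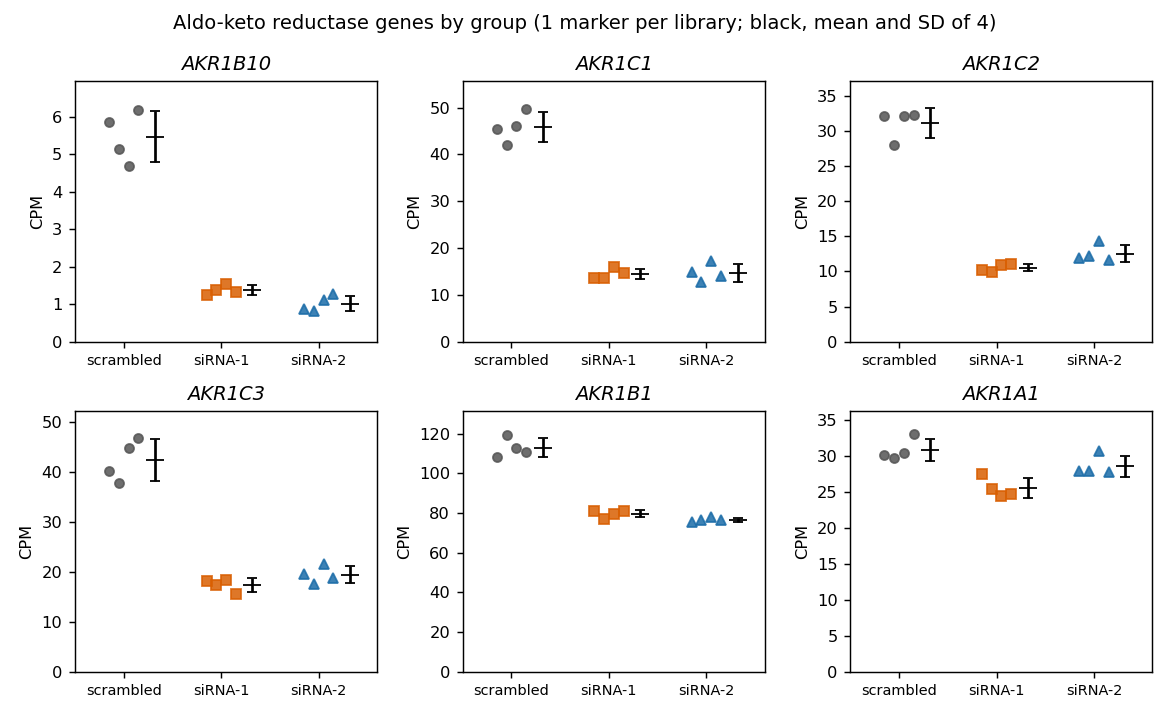
CPM of the 6 aldo-keto reductase genes by group, 1 marker per library, with the mean and SD of 4 libraries in black and each axis starting at 0. AKR1B10, AKR1C1, AKR1C2 and AKR1C3 fall 2-fold or more with both siRNAs, AKR1B1 less, and in AKR1A1 siRNA-2 overlaps the scrambled libraries.

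AKR1C1, AKR1C2 and AKR1C3 lie side by side on chromosome 10 (4963254 to 4987738, plus strand, 4984981 to 5023303, minus strand, and 5048767 to 5107686, plus strand). AKR1C1 inactivates progesterone, AKR1C2 inactivates dihydrotestosterone, and AKR1C3 makes testosterone and prostaglandin F. Their coding sequences are alike, which bears on how far each gene's count is its own. Of 972 coding bases in the GENCODE v29 transcripts, AKR1C1 and AKR1C2 differ at 19 (98% identical), AKR1C1 and AKR1C3 at 83 (91.5%), and AKR1C2 and AKR1C3 at 87 (91%). AKR1C2 holds 51.8% of the 50-base runs of the AKR1C1 coding sequence and 19.1% of its 100-base runs. The stretch of coding bases 73 to 162, read 5′ to 3′, is shown because 10 of the 19 differences between AKR1C1 and AKR1C2 lie in it, and capitals mark bases that differ from AKR1C1.
AKR1C1: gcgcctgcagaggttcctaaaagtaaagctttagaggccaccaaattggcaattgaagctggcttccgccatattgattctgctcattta
AKR1C2: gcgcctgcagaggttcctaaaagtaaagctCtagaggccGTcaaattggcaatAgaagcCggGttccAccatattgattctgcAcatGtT
AKR1C3: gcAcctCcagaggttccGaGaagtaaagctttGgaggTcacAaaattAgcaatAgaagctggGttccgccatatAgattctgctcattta
A read that spans this stretch can be placed, whereas the longest identical run of AKR1C1 and AKR1C2 is 189 bases, so the 3 genes are reported as uncertain when taken singly. The intervals of AKR1C1 and AKR1C2 also overlap by 2.76 kb, and LOC107984198 covers 56.8% of the AKR1C3 interval with 35.9% as many reads. LOC101928051 lies wholly inside the AKR1C2 interval with 56% as many reads and gave -1.61 and -1.42. CHESS406 lies wholly inside the AKR1C3 interval with 35.5% as many reads and gave -1.64 and -1.52. The part of these overlaps in the values below was not tested.

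AKR1C1 measured 45.4, 41.9, 46.04 and 49.7 CPM in the scrambled libraries, 13.6, 13.6, 15.9 and 14.6 CPM with siRNA-1 and 14.9, 12.7, 17.1 and 13.9 CPM with siRNA-2. AKR1C2 measured 32.1, 28.1, 32.2 and 32.4 CPM in the scrambled libraries, 10.2, 9.99, 10.9 and 11.04 CPM with siRNA-1 and 11.9, 12.3, 14.3 and 11.6 CPM with siRNA-2. AKR1C3 measured 40.1, 37.8, 44.9 and 46.8 CPM in the scrambled libraries, 18.2, 17.4, 18.5 and 15.5 CPM with siRNA-1 and 19.5, 17.6, 21.7 and 18.9 CPM with siRNA-2. In all 3 genes each scrambled library stood above every siRNA library. AKR1C1 fell, with log2 fold changes of -1.67 ± 0.08 (adjusted p = 2.38e-12) with siRNA-1 and -1.64 ± 0.08 (adjusted p = 2.17e-12) with siRNA-2. AKR1C2 fell, with log2 fold changes of -1.57 ± 0.07 (adjusted p = 4.75e-16) and -1.32 ± 0.06 (adjusted p = 7.4e-15). AKR1C3 fell, with log2 fold changes of -1.29 ± 0.07 (adjusted p = 2.56e-11) and -1.13 ± 0.07 (adjusted p = 1.15e-10). Summing the 3 genes, so that it does not matter which of them a read was given to, gave -1.49 (adjusted p = 9.45e-12) with siRNA-1 and -1.36 (adjusted p = 2.32e-11) with siRNA-2. Reads in the stretch shared by the AKR1C1 and AKR1C2 intervals may be counted for both. The sum does not remove these, nor reads of other overlapping genes. AKR1C4, a further paralog with 88.5% identity to AKR1C1, gave -1.51 (adjusted p = 0.00463) and -1.91 (adjusted p = 0.00116), and reads of the others may be counted in it.

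Between the siRNAs, AKR1C2 was higher with siRNA-2, with a log2 fold change of 0.25 ± 0.07 (adjusted p = 0.00618), while the summed genes gave 0.14 (adjusted p = 0.135), which did not pass the test. AKR1B10 was lower with siRNA-2, at -0.43 ± 0.16 (adjusted p = 0.0422), a call lost without scrambled replicate 1, without replicate 2, 3 or 4 of siRNA-1, and without replicate 1 or 2 of siRNA-2 (adjusted p of 0.0515 to 0.142). With all libraries kept it was also lost in DESeq2 (adjusted p = 0.0639), with no filter (adjusted p = 0.0641) and when only the groups compared were fitted (adjusted p = 0.0862). Without scrambled replicate 1, siRNA-1 replicate 3 and siRNA-2 replicate 2 together, a setting chosen after seeing the data, AKR1B10 gave -0.28 (adjusted p = 0.296) and AKR1C3, at 0.16 ± 0.08 (adjusted p = 0.128) over all libraries, passed at 0.24 (adjusted p = 0.0446).

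AKR1B1, aldose reductase of the polyol pathway, ranged over 108 to 119 CPM in the scrambled libraries, 77.05 to 80.9 CPM with siRNA-1 and 75.6 to 77.8 CPM with siRNA-2. Its log2 fold changes were -0.50 ± 0.04 (adjusted p = 1.29e-11) and -0.56 ± 0.04 (adjusted p = 1.47e-12). AKR1A1 measured 30.1, 29.6, 30.4 and 33.03 CPM in the scrambled libraries, 27.4, 25.4, 24.4 and 24.7 CPM with siRNA-1 and 27.8, 27.9, 30.6 and 27.7 CPM with siRNA-2. AKR1A1, aldehyde reductase, fell with siRNA-1, at -0.27 ± 0.05 (adjusted p = 8.33e-05), while siRNA-2 gave -0.11 ± 0.05 (adjusted p = 0.0724) and overlapped the scrambled libraries. The difference between the siRNAs was 0.16 ± 0.05 (adjusted p = 0.0178), and was lost without siRNA-1 replicate 3 (adjusted p = 0.062), siRNA-1 replicate 4 (0.0552) or siRNA-2 replicate 3 (0.0842), and without the 3 libraries named above (0.0674). Leaving out siRNA-2 replicate 3, the highest of its group, brought siRNA-2 against scrambled to -0.15 (adjusted p = 0.0245), and without scrambled replicate 1 or siRNA-1 replicate 2 it passed too (0.0413 and 0.0404). With all libraries of its 2 groups kept, AKR1A1 with siRNA-2 passed with DESeq2 size factors (adjusted p = 0.0385), with at least 1 CPM in at least 4 libraries (adjusted p = 0.0424), with protein-coding genes alone (adjusted p = 0.0179) and when only the groups compared were fitted (adjusted p = 0.0274).

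Genes of cystine uptake and of glutathione synthesis, recycling and use are described next. Of 5 such genes, 2 fell with siRNA-1 and 5 with siRNA-2, with medians of -0.20 and -0.55. Both medians are the values of GPX2, a glutathione peroxidase with 27 to 77 reads per library whose limits are given below. SLC7A11 measured 34.3, 32.8, 31.97 and 38.5 CPM in the scrambled libraries, 16.9, 20.1, 21.1 and 18.6 CPM with siRNA-1 and 16.8, 15.8, 17.5 and 16.5 CPM with siRNA-2. Every scrambled library lay above every siRNA library, and the 2 siRNA groups overlapped. SLC7A11, the cystine carrier of the xCT exchanger, fell, with log2 fold changes of -0.84 ± 0.06 (adjusted p = 7.21e-11) and -1.05 ± 0.07 (adjusted p = 1.33e-12), and the difference of -0.20 (adjusted p = 0.0219) was lost without replicate 2 or 3 of siRNA-1 and without replicate 2 or 4 of siRNA-2 (adjusted p of 0.0519 to 0.0945), and without the same 3 libraries as above (adjusted p = 0.246). Its antisense gene SLC7A11-AS1 shares 14.1 kb with it and changed alike, by -0.83 and -0.99, and without strand their reads cannot be told apart.

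GSR measured 66.9, 68.3, 64.9 and 66.3 CPM in the scrambled libraries, 50.3, 51.3, 52.95 and 51.7 CPM with siRNA-1 and 40.1, 43.7, 41.1 and 42.5 CPM with siRNA-2. GSR, glutathione reductase, separated the 3 groups, with the scrambled libraries highest and siRNA-2 lowest. GSR fell, with log2 fold changes of -0.37 ± 0.04 (adjusted p = 1.44e-08) and -0.67 ± 0.04 (adjusted p = 2.47e-13), and siRNA-2 against siRNA-1 gave -0.30 ± 0.04 (adjusted p = 1.83e-06). GCLC and GCLM, the catalytic and modifier subunits of glutamate-cysteine ligase, gave 0.01 (adjusted p = 0.902) and -0.08 (adjusted p = 0.22) with siRNA-1. With siRNA-2 both fell, with log2 fold changes of -0.15 (adjusted p = 0.0307) and -0.26 (adjusted p = 0.000179), and siRNA-2 against siRNA-1 gave -0.16 (adjusted p = 0.0362) and -0.18 (adjusted p = 0.0111). GPX2, a glutathione peroxidase, had 27 to 77 reads per library and lies wholly inside the CHURC1-FNTB interval, which holds many more reads. Its -0.55 (adjusted p = 0.0469) with siRNA-2 rests on groups that overlap.

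All 4 listed genes of the thioredoxin branch fell with each siRNA, with medians of -0.50 and -0.34. The 22 further glutathione, thioredoxin and peroxide enzymes described below went both ways. TXN measured 212, 211, 235 and 231 CPM in the scrambled libraries, 135, 132, 127 and 139.7 CPM with siRNA-1 and 150.5, 146, 167 and 156 CPM with siRNA-2. Thioredoxin was lowest with siRNA-1, and no 2 groups overlapped. TXN fell, with log2 fold changes of -0.73 ± 0.04 (adjusted p = 6.01e-13) and -0.52 ± 0.04 (adjusted p = 2.46e-10), and was higher with siRNA-2 than with siRNA-1 by 0.21 ± 0.04 (adjusted p = 0.000542). SRXN1 measured 114, 115, 114 and 116 CPM in the scrambled libraries, 70.1, 70.7, 71.3 and 75.8 CPM with siRNA-1 and 98.2, 91.5, 100.5 and 95.6 CPM with siRNA-2. SRXN1, sulfiredoxin, which repairs overoxidised peroxiredoxins, showed the same order. SRXN1 fell, with log2 fold changes of -0.67 ± 0.04 (adjusted p = 9.12e-14) with siRNA-1 and -0.25 ± 0.04 (adjusted p = 2.32e-06) with siRNA-2, a difference of 0.42 ± 0.04 (adjusted p = 2.98e-09).

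TXNRD1, thioredoxin reductase, ranged over 799 to 854 CPM in the scrambled libraries, 739 to 762 CPM with siRNA-1 and 691 to 744 CPM with siRNA-2. TXNRD1 fell, with log2 fold changes of -0.15 ± 0.04 (adjusted p = 0.000829) and -0.22 ± 0.04 (adjusted p = 9.08e-06). PRDX1, a peroxiredoxin that removes hydrogen peroxide, fell, with log2 fold changes of -0.33 ± 0.05 (adjusted p = 1.9e-06) and -0.43 ± 0.05 (adjusted p = 3.28e-08). MMACHC overlaps 74.4% of the PRDX1 interval and holds 101% as many reads, so with counts taken as unstranded these may be largely the same reads.

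NADPH feeds both glutathione and thioredoxin reductase, and the 4 listed genes of its supply fell with each siRNA, with medians of -0.18 and -0.36. The 16 further genes of NADPH supply, heme and iron described below went both ways. ME1 measured 48.4, 47.5, 51.97 and 55.97 CPM in the scrambled libraries, 39.02, 39.4, 38.8 and 39.5 CPM with siRNA-1 and 26.8, 29.7, 31.4 and 30.9 CPM with siRNA-2. TKT measured 432, 454, 442 and 437 CPM in the scrambled libraries, 384, 372, 385 and 419 CPM with siRNA-1 and 340.4, 324, 342 and 327 CPM with siRNA-2. PGD measured 165, 166, 169.8 and 171.9 CPM in the scrambled libraries, 155, 157, 160.5 and 162 CPM with siRNA-1 and 138, 128, 138 and 136 CPM with siRNA-2. In ME1, TKT and PGD the siRNA-2 libraries were lowest and overlapped neither of the other groups. ME1, cytosolic malic enzyme, fell, with log2 fold changes of -0.38 ± 0.05 (adjusted p = 1.18e-06) and -0.78 ± 0.05 (adjusted p = 4.04e-12), and siRNA-2 against siRNA-1 gave -0.40 ± 0.05 (adjusted p = 2.26e-06). TKT, transketolase of the pentose phosphate pathway, fell, with log2 fold changes of -0.18 ± 0.04 (adjusted p = 0.000304) and -0.41 ± 0.04 (adjusted p = 1.19e-09), a difference of -0.23 ± 0.04 (adjusted p = 3.91e-05). PGD, the phosphogluconate dehydrogenase, fell with siRNA-2, at -0.32 ± 0.03 (adjusted p = 1.87e-08) against scrambled and -0.23 ± 0.03 (adjusted p = 9.64e-06) against siRNA-1. With siRNA-1 PGD gave -0.08 ± 0.03 (adjusted p = 0.0418), a call lost without any of scrambled replicates 2, 3 and 4, siRNA-1 replicates 1 and 3, and siRNA-2 replicates 3 and 4 (adjusted p of 0.0509 to 0.119), and with no filter (adjusted p = 0.0703). TALDO1, transaldolase, fell, with log2 fold changes of -0.19 ± 0.04 (adjusted p = 6.43e-05) and -0.21 ± 0.04 (adjusted p = 1.39e-05).

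The heme and iron genes split. HMOX1 measured 7.53, 5.55, 6.03 and 5.57 CPM in the scrambled libraries, 9.83, 12.03, 11.5 and 11.4 CPM with siRNA-1 and 10.96, 10.1, 10.7 and 11.5 CPM with siRNA-2. Heme oxygenase was higher in every siRNA library than in any scrambled one. Scrambled replicate 1 was the highest of its group in HMOX1 and in the interferon sum, and a link between these was not tested. HMOX1, which breaks down heme, rose by 0.86 ± 0.09 (adjusted p = 1.03e-08) and 0.81 ± 0.09 (adjusted p = 2.41e-08), and the siRNAs gave a difference of -0.05 ± 0.09 (adjusted p = 0.71). FTH1 measured 431, 467, 450.1 and 464 CPM in the scrambled libraries, 338, 315, 306 and 340.5 CPM with siRNA-1 and 277, 269, 276 and 268 CPM with siRNA-2. FTH1, the ferritin heavy chain, separated the 3 groups. FTH1 fell, with log2 fold changes of -0.48 ± 0.04 (adjusted p = 1.05e-10) and -0.73 ± 0.04 (adjusted p = 3.16e-14), and siRNA-2 against siRNA-1 gave -0.25 ± 0.04 (adjusted p = 1.29e-05). FTL, the light chain, fell, with log2 fold changes of -0.60 ± 0.04 (adjusted p = 5.5e-12) and -0.50 ± 0.04 (adjusted p = 1.34e-10), over 259.7 to 285 CPM in the scrambled libraries, 170.2 to 188 CPM with siRNA-1 and 181 to 204 CPM with siRNA-2. GYS1 overlaps 40.2% of the FTL interval with 16.2% as many reads and gave 0.33 and 0.13. BEST1 overlaps 69.5% of the FTH1 interval with 34.7% as many reads and gave -0.42 and -0.69.

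The 8 genes of quinone and carbonyl reduction and of conjugation did not move together: 3 fell and 2 rose with each siRNA, with medians of -0.02 and 0.01. NQO1, the quinone reductase that is the standard NRF2 readout, ranged over 94.05 to 101 CPM in the scrambled libraries, 61.2 to 66.4 CPM with siRNA-1 and 62.2 to 69.1 CPM with siRNA-2. NQO1 fell, with log2 fold changes of -0.59 ± 0.04 (adjusted p = 6.88e-12) and -0.55 ± 0.04 (adjusted p = 1.88e-11). NOB1 and NFAT5 overlap its ends by 6.17 and 0.034 kb, and over their whole intervals hold 64.4% and 83.2% as many reads. NOB1 gave -0.30 and 0.18 and NFAT5 -0.06 and 0.13. MGST1 measured 6.97, 6.35, 7.46 and 7.83 CPM in the scrambled libraries, 3.54, 4.21, 3.80 and 4.09 CPM with siRNA-1 and 4.21, 3.63, 4.53 and 4.68 CPM with siRNA-2. MGST1, a membrane glutathione transferase, was at most 4.68 CPM in any siRNA library and at least 6.35 CPM in the scrambled ones. MGST1 fell, with log2 fold changes of -0.87 ± 0.10 (adjusted p = 7.25e-08) and -0.75 ± 0.10 (adjusted p = 6.03e-07). UGDH, which makes UDP-glucuronate for conjugation, fell, with log2 fold changes of -0.31 ± 0.05 (adjusted p = 4.78e-06) and -0.20 ± 0.05 (adjusted p = 0.000794). UGDH-AS1, on the opposite strand, overlaps it by 0.169 kb, holds 78.4% as many reads over its whole interval and gave -0.62 and -0.62.

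CBR1 measured 49.2, 47.4, 50.2 and 48.8 CPM in the scrambled libraries, 60.5, 66.03, 67.2 and 67.05 CPM with siRNA-1 and 69.6, 70.03, 70.9 and 72.2 CPM with siRNA-2. CBR3 measured 15.8, 15.03, 14.9 and 15.2 CPM in the scrambled libraries, 14.5, 13.1, 14.4 and 14.5 CPM with siRNA-1 and 20.7, 20.4, 21.5 and 21.3 CPM with siRNA-2. CBR1 was above the scrambled range in every siRNA library, whereas CBR3 was above it with siRNA-2 and just below it with siRNA-1. CBR1, a carbonyl reductase, rose by 0.41 ± 0.04 (adjusted p = 2.82e-09) and 0.53 ± 0.04 (adjusted p = 2.34e-11), and the siRNAs differed by 0.12 (adjusted p = 0.0247), which was lost without siRNA-1 replicate 1 (adjusted p = 0.134), siRNA-2 replicate 3 (adjusted p = 0.0527) or siRNA-2 replicate 4 (adjusted p = 0.0784). CBR3, its neighbour, gave -0.11 ± 0.05 (adjusted p = 0.0964) with siRNA-1 and rose with siRNA-2, at 0.46 ± 0.05 (adjusted p = 3.69e-08), and its difference of 0.57 ± 0.05 (adjusted p = 6.37e-09) was the largest in size of the 36 genes over all 12 libraries. Without siRNA-2 replicate 1, which is outside that comparison but shares its estimate of the spread, CBR3 with siRNA-1 gave -0.13 (adjusted p = 0.0454), and it also passed with protein-coding genes alone, at -0.15 (adjusted p = 0.0151), and with at least 1 CPM in at least 4 libraries (adjusted p = 0.0336). Both genes lie wholly inside an interval of the opposite strand, LOC100133286 with 100% and CBR3-AS1 with 220% as many reads. LOC100133286 gave 0.41 and 0.53, the same as CBR1, and CBR3-AS1 gave -0.26 and 0.06. With counts taken as unstranded, the reads of each gene and of the interval around it cannot be told apart.

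EPHX1 measured 76.2, 75.5, 76.7 and 79.4 CPM in the scrambled libraries, 95.3, 84.7, 87.1 and 91.98 CPM with siRNA-1 and 79.2, 75.7, 82.9 and 80.8 CPM with siRNA-2. Each siRNA-1 library lay above the scrambled ones. EPHX1, microsomal epoxide hydrolase, was higher with siRNA-1 than with siRNA-2, whose log2 fold change against siRNA-1 was -0.17 ± 0.04 (adjusted p = 0.00162). EPHX1 rose by 0.22 ± 0.04 (adjusted p = 4.91e-05) with siRNA-1 and gave 0.05 ± 0.04 (adjusted p = 0.317) with siRNA-2, where the libraries overlapped the scrambled ones. TMEM63A overlaps 18.3% of its interval with 109% as many reads and gave 0.03 and 0.07. GSTM3, a glutathione transferase, gave 0.06 (adjusted p = 0.498) and 0.06 (adjusted p = 0.449). PTGR1, which reduces alkenals, gave 0.13 (adjusted p = 0.154) and -0.03 (adjusted p = 0.792).

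PIR measured 26.9, 26.9, 29 and 31.6 CPM in the scrambled libraries, 21.6, 22.9, 21.7 and 21.7 CPM with siRNA-1 and 18.04, 18.01, 19.96 and 18.7 CPM with siRNA-2. PIR, pirin, an iron-binding nuclear protein, had no overlap between any 2 groups. PIR fell, with log2 fold changes of -0.38 ± 0.05 (adjusted p = 1.98e-06) and -0.61 ± 0.06 (adjusted p = 5.81e-10), with a difference of -0.23 ± 0.06 (adjusted p = 0.00193). PIR-FIGF, a read-through interval, covers 97.9% of it and holds 98.9% as many reads. OSGIN1, an oxidative stress-induced growth inhibitor, fell, with log2 fold changes of -0.48 ± 0.09 (adjusted p = 8.92e-05) and -0.45 ± 0.09 (adjusted p = 0.000159). ABCC3, an export pump for conjugates, fell, with log2 fold changes of -0.35 ± 0.06 (adjusted p = 9.64e-05) and -0.56 ± 0.06 (adjusted p = 2.73e-07). ANKRD40, which overlaps it by 1.53 kb and holds 149% as many reads over its whole interval, also fell (-0.18 and -0.24). ABCC2, a related pump with 109 to 161 reads per library, gave 0.17 (adjusted p = 0.312) and 0.11 (adjusted p = 0.523).

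Set directly against each other, the siRNAs differed in 18 of the 36 genes. With siRNA-2, 12 were lower than with siRNA-1 (33.3%) and 6 higher (16.7%), beside 16.8% lower and 15.7% higher over all genes and 22.7% and 18.5% over protein-coding genes. The median of the 36 was -0.05, and -0.01 over protein-coding genes. The genes lower with siRNA-2 were SLC7A11, GCLC, GCLM, GSR, PGD, TKT, ME1, AKR1B10, ABCC3, FTH1, EPHX1 and PIR, and those higher were TXN, SRXN1, AKR1A1, AKR1C2, CBR1 and CBR3. Groups lay wholly apart in 8 of the lower and 6 of the higher genes, beside 16.2% lower and 15.6% higher over all genes and 21.7% and 18.1% over protein-coding genes. By role, 4 of 5 glutathione genes and 3 of 4 NADPH genes were lower with siRNA-2, and 2 of 4 thioredoxin genes were higher. Without scrambled replicate 1, siRNA-1 replicate 3 and siRNA-2 replicate 2 together, an alternative chosen after seeing the data, 8 were lower and 6 higher. Leaving out siRNA-1 replicate 3 alone, or siRNA-2 replicate 2 alone, also left 8 lower.

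**Figure D3:**
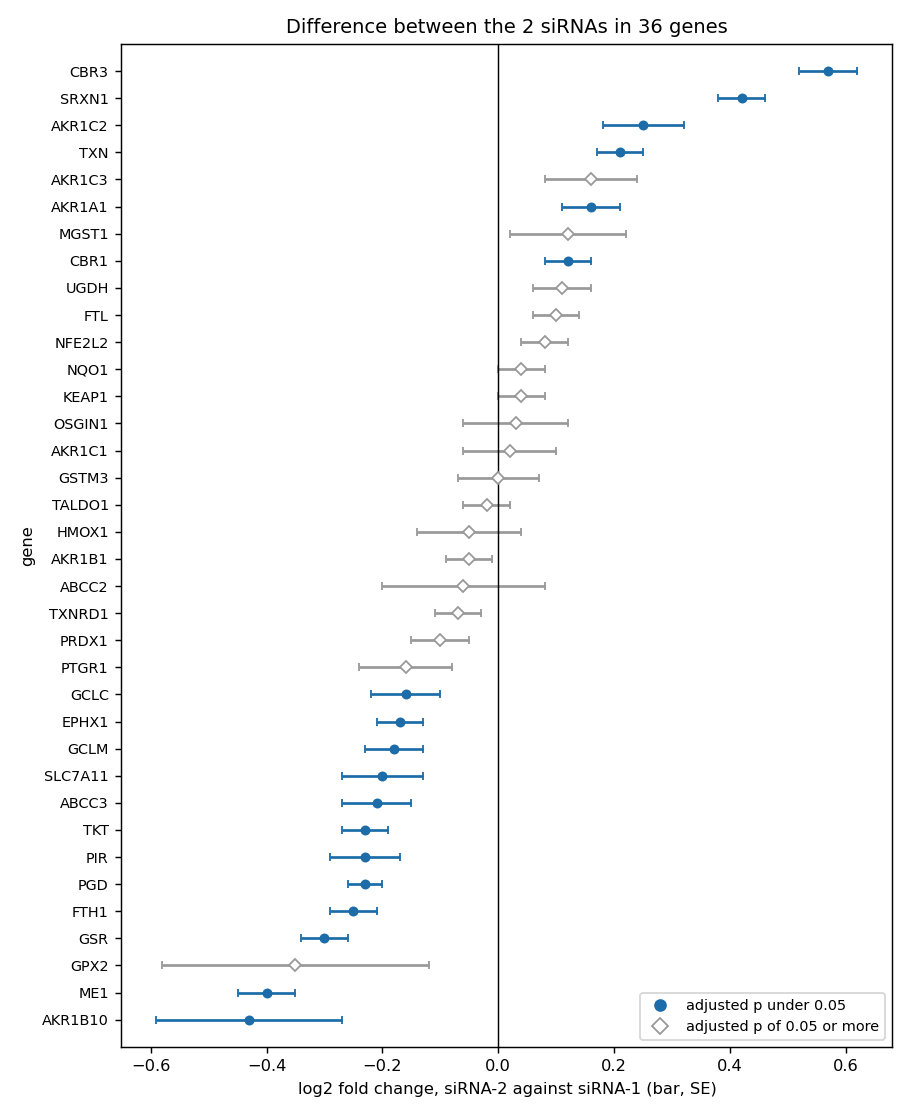
Log2 fold change of siRNA-2 against siRNA-1 for the 36 genes, with the standard error as bars, filled where the adjusted p is under 0.05. CBR3 (0.57) and SRXN1 (0.42) lie at the top, and AKR1B10 (-0.43), which has the widest bar of the filled points, and ME1 (-0.40) at the bottom.

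Promoters were searched for the core of the antioxidant response element, because so many of the genes moved together. The pattern was TGACNNNGC on both strands of the bases from 250 before to 50 after each start, from RefSeq (GRCh38.p14). RefSeq promoters were at hand for 29 of the 38 genes, 40 promoters in all. A match lay in 11 of the 40 (27.5%), belonging to 10 genes, and in 4687 of all 35116 promoters (13.3%). TGACTCAGC, a stricter form that is nested in the first, matched 2 of the 40 (5%), ME1 and PIR, and 197 of all promoters (0.561%). The matches of genes that passed the test with both siRNAs are shown in 29-base windows, read 5′ to 3′ on the gene's strand, with the match in capitals, in either orientation.
ME1, chr6:83431170-83431198, - strand: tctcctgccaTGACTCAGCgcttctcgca
PIR, chrX:15493289-15493317, - strand: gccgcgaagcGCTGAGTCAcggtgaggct
PGD, chr1:10398853-10398881, + strand: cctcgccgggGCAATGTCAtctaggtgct
MGST1, chr12:16347135-16347163, + strand: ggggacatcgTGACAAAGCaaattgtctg
TXNRD1, chr12:104215670-104215698, + strand: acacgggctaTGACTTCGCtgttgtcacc
TXNRD1, chr12:104286920-104286948, + strand: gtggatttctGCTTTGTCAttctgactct
KEAP1, chr19:10502784-10502812, - strand: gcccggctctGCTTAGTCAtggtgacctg
CBR1, chr21:36069855-36069883, + strand: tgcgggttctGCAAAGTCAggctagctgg
ME1 has a further match 12 bases after its start, TXNRD1 has 1 that begins 8 bases before a start, and KEAP1 has 1 that begins 54 bases before. Of the 10 genes with a match, 5 fell and 3 rose with siRNA-1 and 7 fell and 2 rose with siRNA-2. Of the 18 tested genes whose promoters had no match, 14 fell and 0 rose with siRNA-1, and 14 fell and 0 rose with siRNA-2. NFE2L2, NQO1 and the AKR1C genes are among those 18. A match describes letters in this window and is not a binding site, and enhancers were not searched.

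Other genes of these pathways were taken from 6 further lists. These lists were chosen with earlier results of these data known, so their counts are not a test. Among 14 tested partners and regulators of NRF2, 8 rose (57.1%) and 5 fell (35.7%) with siRNA-1. With siRNA-2, 5 rose (35.7%) and 4 fell (28.6%), close to the shares over protein-coding genes. MAFF, a small MAF partner, was at 6.13 to 7.96 CPM in the scrambled libraries, 10.98 to 13.1 CPM with siRNA-1 and 11.9 to 16.0 CPM with siRNA-2, and rose by 0.86 ± 0.09 (adjusted p = 5.78e-08) and 0.96 ± 0.09 (adjusted p = 7.38e-09). BTRC and SYVN1, which mark NRF2 for destruction independently of KEAP1, rose by 0.73 (adjusted p = 1.49e-11) and 0.45 (adjusted p = 1.32e-08) with siRNA-1. With siRNA-2 they rose by 0.80 (adjusted p = 1.95e-12) and 0.57 (adjusted p = 1.37e-10). BACH1 measured 77.8, 81.1, 80.01 and 80.5 CPM in the scrambled libraries, 52.9, 58.7, 59.2 and 54.98 CPM with siRNA-1 and 93.4, 91.3, 92.7 and 90.8 CPM with siRNA-2. BACH1, a repressor that competes with NRF2 for the same elements, moved in opposite directions. BACH1 fell with siRNA-1, at -0.50 ± 0.04 (adjusted p = 5.15e-11), and rose with siRNA-2, at 0.21 ± 0.04 (adjusted p = 5.63e-05), a difference of 0.71 ± 0.04 (adjusted p = 4.85e-13).

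Of 22 further glutathione, thioredoxin and peroxide enzymes, 11 rose (50%) and 4 fell (18.2%) with siRNA-1. With siRNA-2, 8 rose and 8 fell (36.4% each). GPX3, the secreted glutathione peroxidase, was at 6.24 to 7.64 CPM in the scrambled libraries, 2.45 to 2.65 CPM with siRNA-1 and 3.07 to 3.63 CPM with siRNA-2, and fell, with log2 fold changes of -1.48 ± 0.10 (adjusted p = 5.95e-12) and -1.13 ± 0.10 (adjusted p = 3.72e-10). Catalase, CAT, fell, with log2 fold changes of -0.33 (adjusted p = 4.87e-06) and -0.48 (adjusted p = 1.02e-08). SLC3A2, the heavy chain that partners SLC7A11, rose by 0.56 (adjusted p = 1.34e-08) and 0.57 (adjusted p = 1.02e-08), the reverse of SLC7A11. PRDX4, a peroxiredoxin of the endoplasmic reticulum, rose by 0.38 (adjusted p = 1.86e-08) and 0.30 (adjusted p = 7.86e-07). GGT1, which splits extracellular glutathione and has close copies, rose by 0.69 (adjusted p = 1.19e-10) with siRNA-2, and by 0.17 (adjusted p = 0.0167) with siRNA-1, a call lost without scrambled replicate 1 (adjusted p = 0.126) or siRNA-1 replicate 2 (adjusted p = 0.0895). The GGT1 call with siRNA-1 was also lost in DESeq2 (adjusted p = 0.0525), with protein-coding genes alone (adjusted p = 0.064) and without scrambled replicate 1, siRNA-1 replicate 3 and siRNA-2 replicate 2 together (adjusted p = 0.185).

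Conjugation and export genes were mixed, with 5 of 19 higher (26.3%) and 7 lower (36.8%) with siRNA-1. With siRNA-2, 7 were higher (36.8%) and 9 lower (47.4%). MGST2, a microsomal relative of MGST1, fell, with log2 fold changes of -0.41 (adjusted p = 1.5e-08) and -0.53 (adjusted p = 1.66e-10), and GSTZ1, an enzyme of tyrosine breakdown, also fell, at -0.32 (adjusted p = 1.64e-06) and -0.50 (adjusted p = 1.01e-09). SULT1A1, a phenol sulfotransferase, rose by 0.31 (adjusted p = 5.51e-06) and 0.57 (adjusted p = 1.37e-10), and GSTM2 by 0.57 (adjusted p = 4.97e-09) and 0.27 (adjusted p = 0.000301), and both have close copies that can share reads. Of 13 other aldo-keto reductases, aldehyde dehydrogenases and carbonyl reductases, 1 rose (7.69%) and 4 fell (30.8%) with siRNA-1. With siRNA-2, 2 rose (15.4%) and 8 fell (61.5%). ALDH3A2, a fatty aldehyde dehydrogenase, fell, with log2 fold changes of -0.50 (adjusted p = 2.86e-10) and -0.41 (adjusted p = 8.18e-09). CBR4, a mitochondrial carbonyl reductase, fell, with log2 fold changes of -0.29 (adjusted p = 1.21e-06) and -0.18 (adjusted p = 0.000399), and DCXR, a dicarbonyl reductase, rose by 0.27 (adjusted p = 0.000122) and 0.21 (adjusted p = 0.00124). ALDH1A3, a retinaldehyde dehydrogenase, gave 0.12 (adjusted p = 0.24) with siRNA-1 and rose with siRNA-2, at 0.78 (adjusted p = 5.26e-09), a difference of 0.66 (adjusted p = 3.64e-07). ALDH7A1, of lysine breakdown, gave 0.03 (adjusted p = 0.591) with siRNA-1 and fell with siRNA-2, at -0.25 (adjusted p = 2.27e-05), a difference of -0.27 (adjusted p = 1.64e-05).

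Among 16 genes of NADPH supply, heme and iron, 6 rose (37.5%) and 7 fell (43.8%) with siRNA-1. With siRNA-2, 4 rose (25%) and 7 fell (43.8%). TFRC measured 137, 159, 151 and 152 CPM in the scrambled libraries, 79.9, 90.9, 90.5 and 82.8 CPM with siRNA-1 and 66.6, 66.9, 70.3 and 67.9 CPM with siRNA-2. TFRC, the transferrin receptor, fell, with log2 fold changes of -0.80 ± 0.05 (adjusted p = 2.46e-13) and -1.14 ± 0.05 (adjusted p = 3.51e-16), with siRNA-2 lowest. RPIA, a pentose phosphate isomerase, fell, with log2 fold changes of -0.45 (adjusted p = 2.87e-08) and -0.41 (adjusted p = 9.52e-08), and SLC48A1, a heme carrier, rose by 0.28 (adjusted p = 1.48e-06) and 0.35 (adjusted p = 3.68e-08).

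Of 7 further reported NRF2 targets, 6 fell and 0 rose with siRNA-1 and 6 fell and 1 rose with siRNA-2, with medians of -0.46 and -0.54. LUCAT1 measured 6.24, 6.11, 5.599 and 4.93 CPM in the scrambled libraries, 1.87, 1.62, 0.750 and 1.496 CPM with siRNA-1 and 1.37, 1.13, 1.14 and 1.36 CPM with siRNA-2. The long noncoding RNA LUCAT1 was at 4.93 CPM or more in the scrambled libraries and at 1.87 CPM or less elsewhere. LUCAT1 fell, with log2 fold changes of -1.99 ± 0.18 (adjusted p = 1.89e-09) and -2.19 ± 0.18 (adjusted p = 3.53e-10). SLC6A6, the taurine carrier, fell, with log2 fold changes of -0.64 ± 0.05 (adjusted p = 1.1e-10) and -1.05 ± 0.05 (adjusted p = 1.36e-14), and TRIM16L, which has a close copy in TRIM16, also fell, at -0.46 ± 0.04 (adjusted p = 9.14e-10) and -0.83 ± 0.04 (adjusted p = 1.52e-14).

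**Figure D4:**
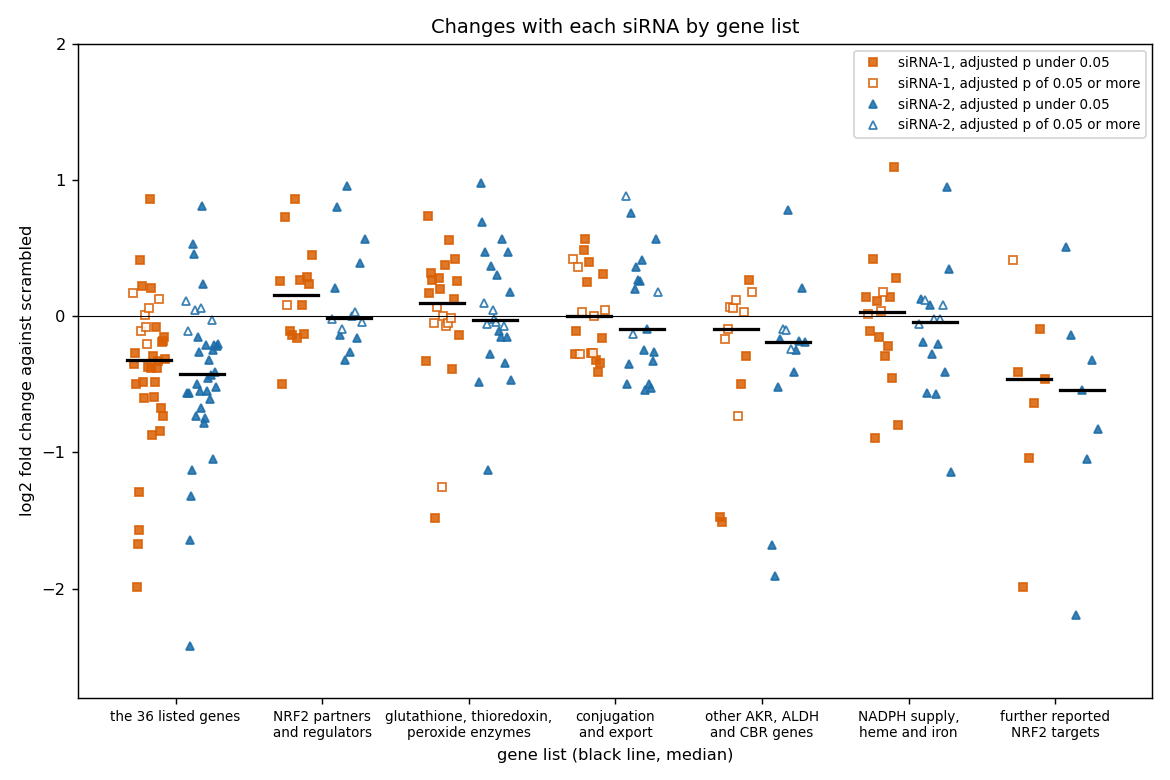
Log2 fold change against scrambled of each tested gene by list, squares for siRNA-1 and triangles for siRNA-2, filled where the adjusted p is under 0.05, with the median as a black line. The medians of the 36 listed genes (-0.32 and -0.42) and of the further reported NRF2 targets (-0.46 and -0.54) lie below 0, and those of the other lists lie between -0.19 and 0.16. All lists were chosen with earlier results of these data known.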

How the data were processed

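RNA sequencing gave 12 libraries of A172 cells, 4 for each of 3 groups taken from the sample titles. The deposited values are raw whole-number counts per gene interval, not normalized, per the file headers. Salmon and the hg38 build are named in the submitters' processing notes, without version. Neither the tool behind the interval counts nor its use of strand is stated. No column of per-sample values was left without a sample.

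Of 49731 intervals, 962 ultraconserved or random regions and 3648 gene intervals were left out, most because they extend more than 100 kb past their gene or carry an older name, and 31 because they are ribosomal RNA. The remaining 45121 were fitted with edgeR 4.0.16 (R 4.3.3): TMM scaling, the filterByExpr filter (at least 10 reads, total at least 15), and robust quasi-likelihood tests in both directions with group as the single covariate over the 12 libraries, adjusted by Benjamini-Hochberg over all genes, with a threshold of 0.05. CPM uses TMM-scaled totals. SE is the size of the log2 fold change over the square root of the F statistic. The fit was tested on simulated data. Totals were 42750164 to 52911797 counts, which gave 27 to 77 reads for GPX2, 37 to 290 for AKR1B10 and at least 109 for the other members.

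The members and lists were chosen with earlier results of these data known. Values of every library are given for NFE2L2, KEAP1, AKR1B10, the AKR1C genes and, in each comparison, up to 6 highest and 6 lowest changes past the threshold with average log2 CPM of at least 1 and groups that do not overlap. From each other list the 3 smallest p-values per comparison with scrambled are named, except 1 gene that is not reported here, and AKR1B15 and AKR1C4 were added as paralogs after their values were seen. Alternatives were DESeq2 size factors, DESeq2 1.42.0, no filter, 1 CPM in at least 4 libraries, protein-coding genes only, only the groups compared, a block by replicate number, each library left out and, chosen after seeing the data, 3 libraries left out together. Names came from RefSeq tables and GENCODE v29. Tables and figures used matplotlib 3.10.9, numpy 2.4.6 and pandas 2.3.3 in Python 3.11.15.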

Additional observations from a re-analysis of the deposited data

Results flagged for a closer look

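Among 108 groups of 4 libraries, 3 for each of the 36 genes, 7 held a library far from the other 3, where chance gives about 1 in 20. In the scrambled group these were KEAP1 in replicate 4 (162.7 CPM, the others 170.6 to 171.8), AKR1C2 in replicate 2 (28.07 CPM, the others 32.1 to 32.35) and GSTM3 in replicate 1 (11.12 CPM, the others 12.47 to 12.57). With siRNA-1 they were PIR in replicate 2 (22.88 CPM, the others 21.64 to 21.74), CBR1 in replicate 1 (60.46 CPM, the others 66.03 to 67.16) and CBR3 in replicate 2 (13.12 CPM, the others 14.42 to 14.5). With siRNA-2 it was AKR1A1 in replicate 3 (30.64 CPM, the others 27.68 to 27.92). The share of 45S ribosomal RNA in replicate 3 of siRNA-1 was 16.2%, against 1.81% to 4.09% in the rest of its group.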

How the results depend on the processing

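The counts of listed genes higher and lower stayed within 1.5 times their value in 120 of 120 recomputations. With siRNA-1, 24 to 27 genes fell and 4 rose, and with siRNA-2, 25 to 28 fell and 4 rose. The comparison of siRNA-2 against siRNA-1 moved more, with 8 to 12 lower and 4 to 8 higher. Its 12 lower genes became 8 without siRNA-1 replicate 3 alone or siRNA-2 replicate 2 alone. Its 6 higher genes became 4 without siRNA-2 replicate 3. Without scrambled replicate 1, siRNA-1 replicate 3 and siRNA-2 replicate 2 together, chosen after seeing the data, 25 fell with siRNA-1 and 26 with siRNA-2. Of 2267 values of single genes, 2215 kept their direction and their side of the threshold, 36 lost the call, 11 gained it and 5 changed sign. The sign changes were of values close to 0. AKR1C1 in siRNA-2 against siRNA-1 ranged from -0.06 to 0.09 with single libraries left out, and ALDH7A1 with siRNA-1 from -0.01 to 0.06, with -0.01 also when protein-coding genes alone were fitted, and the cause was not tested. Counts of the other lists moved by over 1.5 times in 13 of 480 recomputations.

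Replicate numbers did not pair the libraries. Each library's deviation from its group's mean log2 CPM was taken over 16660 genes. Correlations of these deviations between groups were -0.123 to 0.102 over 12 pairs with the same number. They were -0.291 to 0.194 over 36 pairs with other numbers. In these deviations, 0 of the 12 libraries correlated best with their own number. With the replicate block, 25 genes fell and 4 rose with siRNA-1, 27 fell and 4 rose with siRNA-2, and 12 were lower and 7 higher with siRNA-2 against siRNA-1. Depth limits GPX2 (27 to 77 reads per library), AKR1B10 (37 to 290) and ABCC2 (109 to 161) most.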
